A study of Mus musculus with 10 samples.

Results

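Igf2 and 8 further genes of the insulin-like growth factor axis were described in primary mediastinal T cell lymphomas of 10 mice, 1 array per mouse. The genes were listed by name (Igf2, H19, Igf1, Igf1r, Igf2r, Igf2bp1, Igf2bp2, Igf2bp3 and Igfbp4), and each was read from the probe set with the highest mean among those that name it alone. Such a probe set was found for 7 of the 9, of 19937 genes in all. H19 and Igf2bp2 had none, and neither has a value of its own here. Igf2, Igf1, Igf1r, Igf2r and Igfbp4 passed a filter on dim probe sets (mean log2 intensity of at least 6.35), as did 12670 genes in all, while Igf2bp1 and Igf2bp3 did not. The genes were listed with these arrays' values in view, because some of them differ sharply between lymphomas with high and with low Cd2.

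All 10 mice carried the NPM-ALK transgene, a fusion kinase of human anaplastic large cell lymphoma, on a C57BL/6 background. Each array stands for total RNA of 1 lymphoma that arose spontaneously. In 5 mice Was was intact (labelled WT), and 5 mice lacked WASP, the actin regulator that Was encodes (labelled WASP -/-, females homozygous or males hemizygous for the deficient allele). Lymphomas developed at 4 to 5 months of age. Neither the sex of single animals nor the promoter behind the transgene is stated by the labels. They call the replicates biological, so the tests read the spread between animals. Values below are log2 intensities, and differences between genotypes are WASP-deficient minus WASP-intact.

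The ligands IGF1 and IGF2 signal through the receptor tyrosine kinase IGF1R, and on to PI3 kinase and AKT. The receptor encoded by Igf2r lacks such a kinase and carries IGF2 to lysosomes, and secreted binding proteins such as IGFBP4 hold the ligands away from IGF1R. Igf2 and H19 are imprinted neighbours, Igf2 being expressed from the paternal and H19 from the maternal copy in most fetal tissues, and both are largely silenced after birth in the mouse. IGF2BP1, IGF2BP2 and IGF2BP3 are RNA-binding proteins, the first and the last of them largely fetal, that bind Igf2 mRNA among many other transcripts.

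The promoter sequences of Igf2 are shown because Igf2 was the gene of the axis that varied most, and that of Igf1r because it varied in the opposite direction. Each window spans 250 bases before to 50 bases after a RefSeq start on GRCm38.p6, is written 5′ to 3′ on the strand of the gene, and has matches to 5 motifs in capitals. Igf2 has 4 such starts on the minus strand of chromosome 7, and a single probe set cannot tell them apart.
Igf2 start 1, chr7:142666767-142667066: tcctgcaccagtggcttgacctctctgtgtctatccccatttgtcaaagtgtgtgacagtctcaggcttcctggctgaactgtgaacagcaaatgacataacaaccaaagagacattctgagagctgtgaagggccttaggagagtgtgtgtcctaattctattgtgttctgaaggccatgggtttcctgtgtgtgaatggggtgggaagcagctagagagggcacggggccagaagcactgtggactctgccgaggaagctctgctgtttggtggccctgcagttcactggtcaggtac
Igf2 start 2, chr7:142661222-142661521: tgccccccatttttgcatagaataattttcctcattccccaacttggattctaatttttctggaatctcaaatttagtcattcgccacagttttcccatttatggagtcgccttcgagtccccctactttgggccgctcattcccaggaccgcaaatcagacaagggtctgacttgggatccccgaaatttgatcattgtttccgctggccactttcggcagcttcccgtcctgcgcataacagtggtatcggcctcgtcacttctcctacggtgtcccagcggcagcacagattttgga
Igf2 start 3, chr7:142658755-142659054: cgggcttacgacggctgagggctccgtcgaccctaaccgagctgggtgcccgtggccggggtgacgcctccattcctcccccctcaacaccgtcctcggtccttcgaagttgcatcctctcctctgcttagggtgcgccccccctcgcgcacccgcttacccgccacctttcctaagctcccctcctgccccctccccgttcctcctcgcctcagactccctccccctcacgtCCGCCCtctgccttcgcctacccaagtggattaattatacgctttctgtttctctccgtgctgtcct
Igf2 start 4, chr7:142657447-142657746: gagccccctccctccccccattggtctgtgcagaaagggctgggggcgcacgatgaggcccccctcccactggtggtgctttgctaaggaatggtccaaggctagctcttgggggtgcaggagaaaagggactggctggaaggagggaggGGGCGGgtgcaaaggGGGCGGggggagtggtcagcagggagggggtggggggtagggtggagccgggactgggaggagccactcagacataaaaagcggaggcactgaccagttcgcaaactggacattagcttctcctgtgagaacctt
Igf1r, plus strand, chr7:67952007-67952306: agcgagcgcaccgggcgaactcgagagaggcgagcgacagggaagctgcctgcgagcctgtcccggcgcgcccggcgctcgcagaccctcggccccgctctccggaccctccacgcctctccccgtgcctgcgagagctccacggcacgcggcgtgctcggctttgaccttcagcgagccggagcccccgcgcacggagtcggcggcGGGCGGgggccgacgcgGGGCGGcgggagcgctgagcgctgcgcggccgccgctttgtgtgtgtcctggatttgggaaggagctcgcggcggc

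Motifs were searched on both strands, and their frequency was taken over 32851 RefSeq promoter windows of the same length. The TATA box was searched as TATAAA, which 13.6% of those windows hold. The GC box was searched as GGGCGG and is held by 35.7%. For the E-box the letters were CACGTG, with 7.2% of windows. For the RUNX core they were TGTGGT, with 16.8%, and for the core bound by GATA factors AGATAA, with 11.2%. Only the GC box was found in the windows of Igf2 and Igf1r, 1 time at Igf2 start 3, 2 times at Igf2 start 4 and 2 times at Igf1r. Igf2 starts 1 and 2 held none of the 5. The Igf2 windows held 2, 14, 24 and 7 CpG dinucleotides in the order printed and that of Igf1r held 48, against a median of 7 over all windows. Windows were found for 7 of the 9 genes. Of those not printed, Igfbp4 held 1 TATA box, Igf2bp3 held 2 E-boxes, Igf2r held 3 GC boxes and 2 E-boxes, Igf2bp2 held 2 GC boxes and Igf1 held none of the motifs.

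Igf2 was high in 3 lymphomas and low in 7. Its level was 12.22 on WASP-intact array 4, 12.23 on WASP-intact array 5 and 12.35 on WASP-deficient array 1. On the other WASP-intact arrays, 1 to 3, it was 6.63, 7.03 and 6.93, and on WASP-deficient arrays 2 to 5 it was 7.51, 7.85, 7.22 and 7.62. No array lay between 7.85 and 12.22, and both genotypes held arrays of both kinds. The 3 arrays with high Igf2 were those with high Cd2, an adhesion receptor of T cells: there Cd2 ranged from 11.18 to 11.52, whereas the remaining 7 ranged from 6.10 to 6.90. Arrays with a Cd2 level of 9 or more are called Cd2-high and the others Cd2-low. The lowest Cd2-high and the highest Cd2-low array were thus 11.18 and 6.90, on either side of that level.

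Between the class means Igf2 differed by 5.02 (12.27 ± 0.07, SD, n = 3, against 7.25 ± 0.43, SD, n = 7), a 32.3-fold difference. The classes were formed from these arrays and the genes were chosen with them in view, so this difference is a description and was not tested. Of all 12670 genes, 30.5% had values that did not overlap between the classes, and 6.75% also differed by 1 or more (3.65% higher and 3.1% lower on the Cd2-high arrays). Igf2 had the 6th largest difference towards Cd2-high of the 12670. In such tissue samples, fewer cells of a type and less RNA per cell cannot be told apart. Within the WASP-intact mice alone, the class difference of Igf2 was 5.37.

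**Figure D1:**
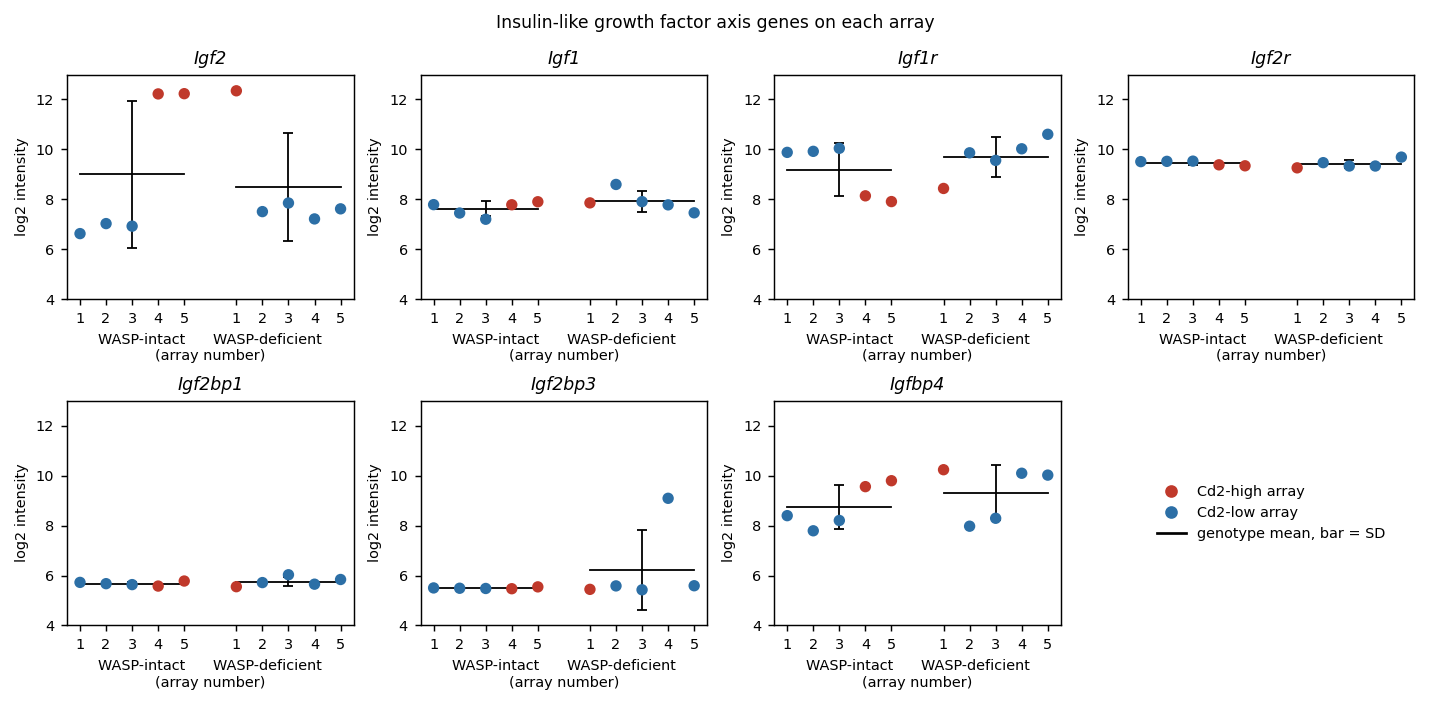
Log2 intensity (y axis) of the 7 genes with a probe set, on each of 5 WASP-intact and 5 WASP-deficient arrays (x axis). Points are arrays, red where Cd2-high and blue where Cd2-low, and lines with bars are genotype means with SD. Igf2 lies at 12.22 to 12.35 on the 3 red arrays and at 6.63 to 7.85 on the 7 blue ones, Igf1r lies lower on the red arrays, and Igf2bp3 is raised on a single array.

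No probe set names H19 alone, but one lists 2 symbols, Mir675 and Supt6. The microRNA gene Mir675 lies inside H19 in RefSeq, and Supt6 encodes a transcription elongation factor on another chromosome. The probe set was looked at after its values were seen, and it is assigned to neither gene. On WASP-intact array 4 it read 12.64, on WASP-intact array 5 it read 12.67, and WASP-deficient array 1 gave 12.85. Elsewhere it stood at 7.68, 8.32 and 8.50 on WASP-intact arrays 1 to 3 and at 9.54, 7.94, 8.22 and 7.87 on WASP-deficient arrays 2 to 5. The 3 high arrays were the same as for Igf2, and the classes differed by 4.43, a 21.5-fold difference. A probe set naming Supt6 alone ranged only from 9.72 to 9.96 over all 10 arrays.

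The neighbours of Igf2 did not all follow it. Mir483, a microRNA gene inside Igf2, had a probe set at 7.65 to 7.82 on the Cd2-high and at 7.43 to 8.01 on the Cd2-low arrays, a class difference of 0.03. Ins2, the insulin gene next to Igf2, stood at 6.08 to 6.23 against 5.72 to 6.17, under the filter on dim probe sets. Igf2os, an antisense gene that overlaps Igf2, was not analysed here, and whether the Igf2 probe set also detects it was not tested. The mature microRNAs of both hosts are shown, from RefSeq on GRCm38.p6, to identify the microRNA genes that these probe sets list. Capitals mark the seed, bases 2 to 8, and no seed is shared.
miR-675-5p, chr7:142577112-142577133, minus strand: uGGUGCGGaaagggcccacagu
miR-675-3p, chr7:142577078-142577099, minus strand: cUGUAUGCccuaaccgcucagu
miR-483-5p, chr7:142654968-142654989, minus strand: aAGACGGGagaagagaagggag
miR-483-3p, chr7:142654932-142654952, minus strand: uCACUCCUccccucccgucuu

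Of 22 genes listed as lying near H19 and Igf2 on chromosome 7, 17 were tested. Values did not overlap between the classes for 2 of them in the higher and 3 in the lower direction (14.4% and 16.1% of all genes), and the median class difference was -0.01, against -0.02 over all 12670 genes. Tspan32, a tetraspanin of blood cells, was higher on the Cd2-high arrays, at 9.34 to 9.60 against 6.05 to 7.23. Cdkn1c, an imprinted inhibitor of the cell cycle, lay at 6.67 to 7.15 on the Cd2-high and 7.15 to 9.24 on the Cd2-low arrays. It counts as not overlapping by a bare margin, 7.1511 against 7.1515. Tnnt3, a troponin of skeletal muscle, was at 11.12 on WASP-intact array 4 and between 6.82 and 7.09 on the other 9. None of the 17 passed the genotype test, and those of smallest p were Cdkn1c (0.55, SE 0.38), Kcnq1 (0.35, SE 0.20) and Tnni2 (-0.53, SE 0.42). Tnni2 was at 9.13 on WASP-intact array 4 and between 6.59 and 6.89 on the other 9.

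**Figure D2:**
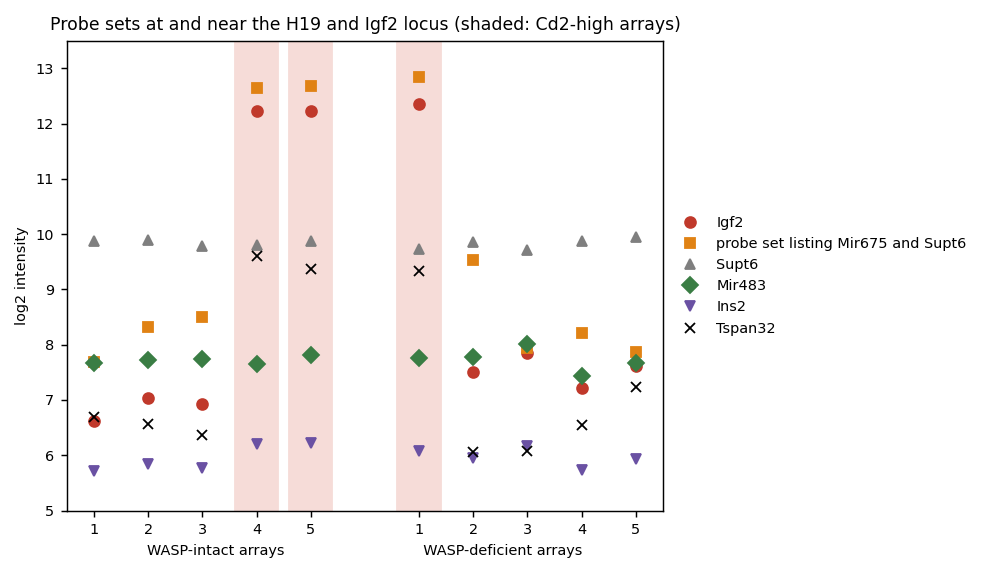
Log2 intensity (y axis) of 6 probe sets on each array (x axis), with the 3 Cd2-high arrays shaded. Igf2, Mir483, Ins2 and Tspan32 lie at or near the H19 and Igf2 locus. Supt6 lies on another chromosome, and the probe set listing Mir675 and Supt6 is assigned to neither gene. The probe set listing Mir675 and Supt6, at 12.64 to 12.85, Igf2 and Tspan32 are high on the shaded arrays, while Supt6 alone and Mir483 stay level.

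Among the receptors, Igf1r went the other way from Igf2. WASP-intact array 4 had 8.14, WASP-intact array 5 had 7.91 and WASP-deficient array 1 had 8.44. On WASP-intact arrays 1 to 3 it was 9.88, 9.92 and 10.05, and on WASP-deficient arrays 2 to 5 it was 9.86, 9.56, 10.02 and 10.61. The Cd2-high arrays lay below all Cd2-low arrays, with a class difference of -1.82, or 3.54-fold. Igf2r, which clears IGF2 from the cell surface, varied little, between 9.26 and 9.69 over all arrays, and its classes overlapped (class difference -0.16).

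Igf1, the other ligand, also overlapped between the classes. It stood at 7.79, 7.45, 7.20, 7.78 and 7.90 on WASP-intact arrays 1 to 5 and at 7.86, 8.60, 7.91, 7.78 and 7.46 on WASP-deficient arrays 1 to 5. The highest Igf1 level, on WASP-deficient array 2, fell on the array with the highest mean level of 13 tested macrophage markers (of 15 listed), 9.25 against 8.57 to 9.21 elsewhere. Low Igf1 also went with low marker levels. WASP-intact array 3 had Igf1 at 7.20 and markers at 8.74. For WASP-intact array 2 these were 7.45 and 8.57, and for WASP-deficient array 5 they were 7.46 and 8.61. All remaining arrays had Igf1 at 7.78 or more and markers at 8.81 or more. The order was not the same throughout: WASP-deficient array 1 had a marker level of 9.21 with Igf1 at 7.86. The lowest marker level, 8.57, was on WASP-intact array 2, and the lowest Igf1 on WASP-intact array 3. Macrophages are a known source of IGF1, and the part of these markers in the Igf1 level was not tested.

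Igfbp4, which binds and restrains both ligands, split the arrays in another way. The WASP-intact arrays 1 to 5 had 8.40, 7.79, 8.21, 9.56 and 9.80, and the WASP-deficient arrays 1 to 5 had 10.24, 7.98, 8.29, 10.10 and 10.02. Thus 5 arrays lay at 9.56 or more and 5 at 8.40 or less. The upper arrays were the 3 Cd2-high ones together with WASP-deficient arrays 4 and 5, so the classes overlapped, with a class difference of 1.18.

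Igf2bp3 was raised in a single lymphoma. It was at 9.09 on WASP-deficient array 4 and between 5.43 and 5.59 on the other 9 arrays. That array had low Igf2 (7.22) and low Cd2 (6.42), and its Igfbp4 was among the 5 upper values. The 3 arrays with high Igf2 had Igf2bp3 at 5.47, 5.55 and 5.45, within the range of the remaining arrays. Igf2bp1 stayed dim throughout, between 5.55 and 6.03, and its second probe set ranged from 3.58 to 3.91.

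Igf2 did not pass the genotype test over all genes. The mean was 9.01 ± 2.94 in WASP-intact and 8.51 ± 2.16 in WASP-deficient lymphomas (SD, n = 5 each), a difference of -0.50 (SE 1.44, limma adjusted p = 0.999). The exact two-sided permutation p was 1, where groups of 5 allow 0.00794 at the smallest. The 3 high arrays were split 2 to 1 between the genotypes, and they set the large SD. Leaving out WASP-intact array 4 or 5 turned the difference to 0.31 in both cases, and leaving out WASP-deficient array 1 gave -1.46.

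Inside each class Igf2 was higher in the WASP-deficient arrays, though not past the threshold. Among the Cd2-low arrays the 3 WASP-intact values ended at 7.03 and the 4 WASP-deficient values began at 7.22, with a mean difference of 0.69 (SE 0.17, limma unadjusted p = 0.00266, adjusted p = 0.999). Of all genes, 3.19% had an unadjusted p under 0.05 in these 7 arrays and 0.0158% an adjusted one. The exact two-sided permutation p of these 7 arrays was 0.0571, where 3 against 4 allow 0.0286 at the smallest. In this comparison 4.06% of all genes had genotypes that did not overlap, and 1.91% with the WASP-deficient arrays higher. Among the Cd2-high arrays the WASP-deficient one had 12.35, against 12.22 and 12.23. With the class as a covariate the difference was 0.53 (SE 0.15, limma unadjusted p = 0.00461, adjusted p = 0.850), and 4.37% of all genes had an unadjusted p under 0.05 in that fit. Igf2 was listed with its step between the classes in view, so the smaller SE of both fits follows in part from that choice. The Xist level differed between the genotypes: it was 11.52 or more on 4 of 5 WASP-intact arrays and 5.58 or less on all 5 WASP-deficient ones. Xist is expressed from the inactive X chromosome of females. With the Xist level as a covariate the Igf2 difference was 1.29 (SE 2.33), and genotype and sex could be told apart only through WASP-intact array 3, where Xist was low and Igf2 was 6.93. The mean level of thymic epithelium markers lay at 6.97 to 7.95 on the WASP-intact and 7.70 to 8.51 on the WASP-deficient arrays. Adipocyte markers went the other way, at 7.62 to 8.49 against 6.88 to 7.75. Stroma markers did so too, at 8.28 to 9.51 against 8.16 to 9.11. The part of these markers in the Igf2 level was not tested. With a single WASP-deficient Cd2-high array, whether genotype acts alike in both classes was not tested.

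None of the 5 tested genes passed the genotype test, where 0.00789% of all genes did. That share is 1 gene, Was itself, with a mean of 9.22 on the WASP-intact and 8.08 on the WASP-deficient arrays. Igf1r differed by 0.52 (SE 0.53), Igf1 by 0.30 (SE 0.21), Igf2r by -0.04 (SE 0.09) and Igfbp4 by 0.57 (SE 0.56), all with a limma adjusted p of 0.999. Single arrays moved these values: over each array left out, Igf1r ranged from 0.20 (without WASP-intact array 5) to 0.83 (without WASP-deficient array 1). Igf1 ranged from 0.13 (without WASP-deficient array 2) to 0.41 (without WASP-deficient array 5). Igfbp4 ranged from 0.33 (without WASP-intact array 2) to 0.91 (without WASP-deficient array 2), and Igf2r from -0.11 to -0.0002. For Igf1r the value was 0.16 (SE 0.18) with the class as a covariate, and for Igfbp4 it was 0.85 (SE 0.41). The 2 dim genes were fitted with no filter. Igf2bp1 then differed by 0.08 (SE 0.09), and Igf2bp3 by 0.73 (SE 0.63), a value that was 0.01 without WASP-deficient array 4. At an unadjusted p under 0.05 none of the 7 was counted, against 2.89% of all genes tested.

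**Figure D3:**
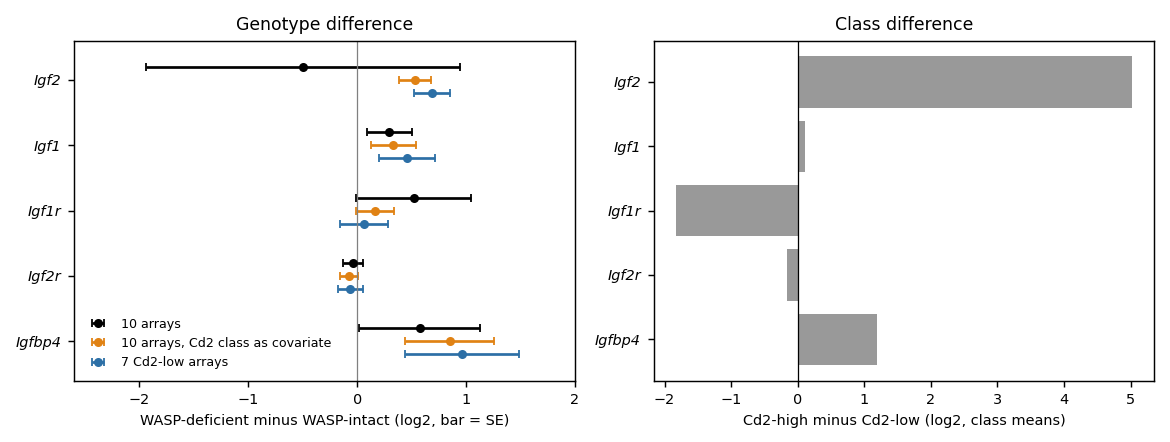
Left, genotype differences (x axis, log2, WASP-deficient minus WASP-intact, bars are SE) of the 5 tested genes over 10 arrays, with the Cd2 class as a covariate, and over the 7 Cd2-low arrays. Right, differences between the means of the 3 Cd2-high and 7 Cd2-low arrays (x axis, log2). The Igf2 value moves from -0.50 to 0.53 with the covariate and its SE shrinks from 1.44 to 0.15. Igf2 was listed with its class step in view, so the smaller SE follows in part from that choice.

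Other tested ligands, receptors and binding proteins of the axis leaned to lower levels on the Cd2-high arrays. Of 20 genes listed, 18 had a probe set and 11 were tested. For 5 of the 11 the Cd2-high arrays lay below all others and for 0 above, against 16.1% and 14.4% of all genes. The median class difference was -0.36, beside -0.02 over all genes. Igfbpl1, a secreted relative of the binding proteins, showed the largest value, with 6.24 to 6.33 on the Cd2-high and 8.05 to 9.55 on the Cd2-low arrays. Insrr, an orphan receptor related to the insulin receptor, was at 5.80 to 5.99 against 6.80 to 7.41, and Igfbp3, the main carrier of IGFs in blood, at 8.28 to 8.86 against 9.27 to 10.18. The insulin receptor gene Insr overlapped, with a class difference of -0.04. With genotype 0 of the 11 passed, and the members of smallest p were Igfbp2 (0.40, SE 0.18), Igfbp3 (0.51, SE 0.30) and Igfbp7 (-0.15, SE 0.12).

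Genes that carry the signal of the receptors inside the cell included members of the PI3 kinase family on either side. Of 27 tested genes (32 listed), 4 lay higher and 6 lower on the Cd2-high arrays without overlap, beside 14.4% and 16.1% of all genes, with a median class difference of -0.02. Pik3cd, the catalytic subunit typical of leukocytes, was at 8.94 to 9.24 on the Cd2-high and 7.10 to 7.91 on the Cd2-low arrays. Pik3r2, a regulatory subunit, was at 8.14 to 8.28 against 8.87 to 9.42. Pik3cb, another catalytic subunit, had a class difference of -0.79 with overlap, 8.67 on WASP-deficient array 1 against 8.66 on WASP-intact array 3. The substrate gene Irs2 was at 7.68 to 7.78 against 8.11 to 8.67. Akt1, a kinase downstream of PI3 kinase, lay lower without overlap by only -0.14. With genotype 0 of 27 passed, with Pik3cb (0.46, SE 0.25), Grb10 (-0.17, SE 0.09) and Rptor (-0.14, SE 0.08) closest.

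**Figure D4:**
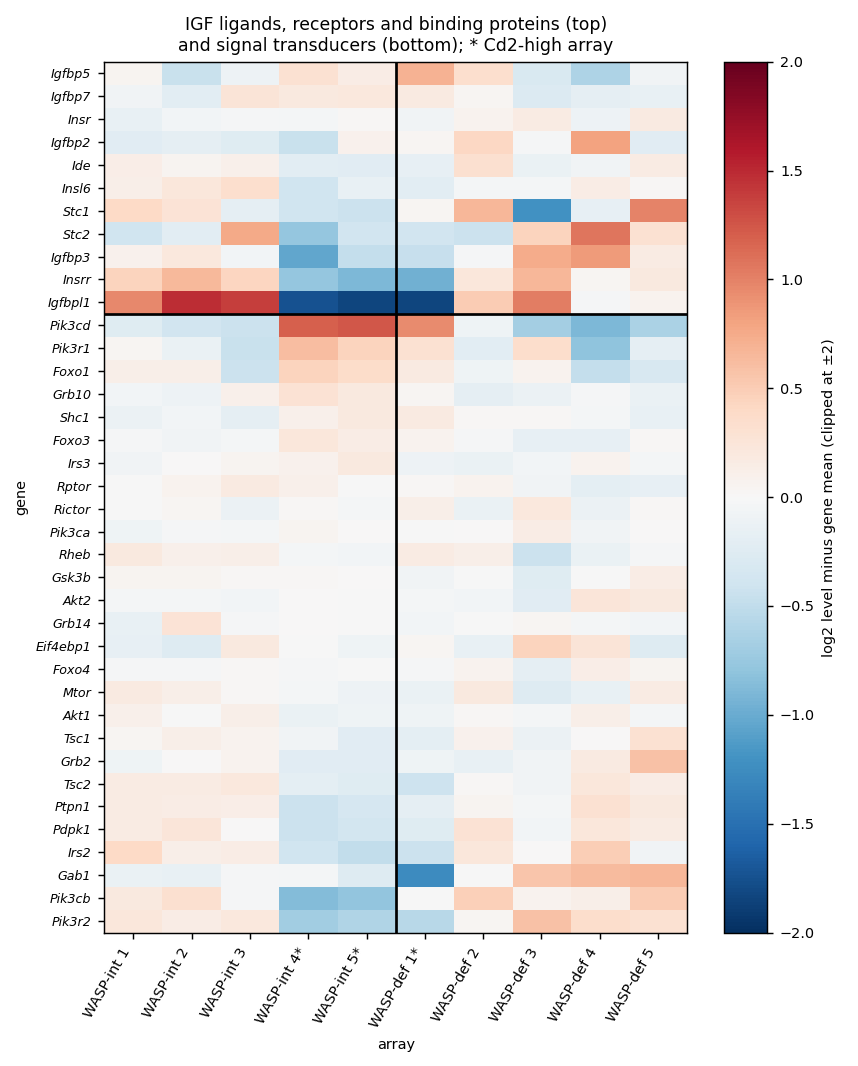
Log2 level minus the mean of the gene (colour) for 11 tested ligands, receptors and binding proteins (top) and 27 tested signal transducers (bottom) on the 10 arrays (columns, Cd2-high marked with an asterisk). Igfbpl1, Insrr and Igfbp3 are low and Pik3cd is high on the 3 marked arrays.

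Other imprinted genes gave no common shift with Igf2. Of 32 listed, 14 were tested, 2 lay higher and 2 lower without overlap, near the 14.4% and 16.1% of all genes, and the median class difference was 0.15. Dcn, a collagen-binding proteoglycan of stroma, was higher, at 10.54 to 11.38 against 9.03 to 10.41. Plagl1, a zinc finger factor known to act on the imprinted network, was at 6.20 to 6.74 against 6.57 to 8.75, and Nnat, a membrane proteolipid, at 6.09 to 6.36 against 6.31 to 10.97. Nnat peaked on WASP-deficient arrays 4 and 5, at 9.24 and 10.97, which were also the Cd2-low arrays with high Igfbp4. None of the 14 passed the genotype test, and 1, Sgce, had an unadjusted p under 0.05 (-0.33, SE 0.12, limma adjusted p = 0.999). Dlk1 (0.18, SE 0.09) and Dcn (-0.73, SE 0.37) came next.

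Regulators of the H19 and Igf2 imprint held one gene with a wide difference. Zfp57, which maintains DNA methylation at imprinted loci, was at 8.69 to 9.34 on the Cd2-high and 6.86 to 8.58 on the Cd2-low arrays. Among the latter, WASP-deficient array 5 had 8.58 and WASP-deficient array 4 had 7.78. Uhrf1, a partner of the maintenance methyltransferase, lay lower without overlap, with a class difference of -0.77. Of the 16 tested genes of this list, 3 lay higher and 2 lower without overlap, with a median of 0.11, beside 14.4% and 16.1% of all genes. In the list around Lin28 and let-7, which holds known partners of the IGF2BP proteins, 2 of 14 lay higher and 1 lower. All genes stood at 14.4% and 16.1%, and the median class difference of this list was -0.001. Tut4, an enzyme that adds uridines to RNA, was at 10.34 to 10.60 against 9.37 to 10.10, and Tut7 differed by 0.30 and Dis3l2 by -0.25, both with overlap. In both lists 0 genes passed the genotype test, at 0 also for an unadjusted p under 0.05. The smallest p belonged to Plagl1 (0.64), Tet1 (-0.14) and Tet3 (-0.16) in the first list, and to Elavl1 (0.12), Hnrnpu (-0.16) and Tut7 (-0.15) in the second.

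The genes whose level followed Igf2 most closely were picked by the root mean square difference between gene-centred log2 levels over the 10 arrays. These were Gm10384 (0.29), Lonrf1 (0.34), 2700046A07Rik (0.36), Cd2 (0.37), Tbx19 (0.39), Snai3 (0.44), Pdzrn4 (0.45) and Slco3a1 (0.48). Tbx19 and Snai3 encode transcription factors and Slco3a1 an organic anion transporter. On the Cd2-high arrays Tbx19 stood at 11.40 to 11.86, against 5.81 to 6.55 elsewhere. The measure for the probe set listing Mir675 and Supt6 was 0.60. These arrays fall into separate classes, so the measure mostly reads the step between them.

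Markers of other cell types moved with the classes in part. The T cell genes Cd3e (12.06 to 12.59) and Thy1 (11.86 to 12.31) were high on all 10 arrays, in keeping with the lineage the labels name. Cd3d was at 5.26 to 6.47 on the Cd2-high and 8.96 to 10.08 on the Cd2-low arrays. Cd3g was lower as well, at 6.29 to 10.24 against 11.45 to 12.23. Of 10 tested T cell markers (12 listed), 2 were higher without overlap and 2 lower, where 14.4% and 16.1% of all genes were. The class difference was positive for 7, with Cd2, which defines the classes, among them, and negative for 3. Of 14 tested fibroblast and stroma markers (15 listed), 6 were higher without overlap on the Cd2-high arrays, where 14.4% of all genes were. The mean level of the list was 9.11 to 9.51 there and 8.16 to 8.93 on the others. None of the 14 was lower without overlap, where 16.1% of all genes were, and the part of stroma in the Igf2 level was not tested. Pdgfra, without overlap, was at 7.46 to 7.64 against 5.84 to 6.79. Col3a1 overlapped by a small margin, at 8.48 to 9.18 against 7.63 to 8.50. Col1a1 and Pdgfrb overlapped too, with class differences of 0.88 and 1.18. The mean level of 9 tested muscle markers was 9.02 on WASP-intact array 4 and 6.73 to 7.18 on the other 9, and Acta1, a muscle actin, was at 11.59 there. On WASP-intact array 5 and WASP-deficient array 1 the muscle list was at 7.18 and 6.83 and Igf2 at 12.23 and 12.35. Marker lists of endothelium, macrophages, adipocytes, T cells, thymic epithelium, B cells and erythroid cells had mean levels that overlapped between the classes. The single markers Actc1, Pecam1, Csf1r, Adipoq and Epcam overlapped as well. Of the 13 tested macrophage markers 2 were higher without overlap, where 14.4% of all genes were. The class difference was positive for 6 of them and negative for 7, with a median of -0.01. Adgre1, at 8.41 to 8.67 against 7.11 to 8.28, was one of the 2. The part of macrophage markers in the Igf2 level was not tested.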

How the data were processed

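Total RNA of 10 lymphomas, 5 per genotype, was biotin-labelled and hybridised to Affymetrix arrays. The deposited values are probe set intensities on a linear scale (3.309 to 15587.9) from the authors' RMA step (background correction, quantile normalization and summary of probes), which the submitters' processing notes name. Its software and version: not given in the sources used here. Log2 was taken before any test. Array medians lay between 116.7 and 122.7, no 2 columns were identical, and the number of arrays limits the precision.

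Of 34760 probe sets, 21640 had 1 gene symbol in the platform annotation, 1321 several and 11799 none. Gene IDs matched RefSeq genes of GRCm38.p6 for 21553, and 0 symbols changed. The probe set with the highest mean stood for a gene. Genes whose mean over all arrays lay under the 40th percentile of probe sets (log2 6.35) were left out of the fit. The genotype test was limma 3.58.1 in R 4.3.3 (functions lmFit and eBayes), with Benjamini-Hochberg adjustment over 12670 genes and a threshold of 0.05, and single genes with exact permutation tests. The fit was tested on simulated data. Python 3.11.15 and matplotlib 3.10.9 drew the figures.

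The members and lists were chosen with earlier results of these data known. Named from the lists were the 3 genes with the largest class difference and the 3 with the smallest genotype p in each, and 8 genes closest to Igf2 and 5 closest to any further member with an SD of 1 or more. Others (Mir483, Ins2, Insr, Irs1, Irs2, Akt1, Supt6, Cd3d, Xist, Acta1, Pdgfra and the probe set listing Mir675 and Supt6) were named after their values were seen. So were Adgre1, Cd3g and Pdgfrb. Alternatives covered the filter, probe set choice, normalization, offset, weights, covariates, replicate block and each array left out. Replicate numbers were not treated as pairs.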

Additional observations from a re-analysis of the deposited data

Results flagged for a closer look

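Of 14 groups of 5 arrays (7 genes in 2 genotypes), 2 held an array far from the rest of its group. The cut-off is one that chance passes in about 1 group in 20. The genes were listed with these values in view, so the count cannot be read against that rate. Igf2 was at 12.35 on WASP-deficient array 1, against 7.22 to 7.85 on the other 4 WASP-deficient arrays, a gap of 0.876 of the range of the group. This is the single Cd2-high array of that genotype, and Igf2 was chosen with its values known, so the gap is a description. Igf2bp3 was at 9.09 on WASP-deficient array 4, against 5.43 to 5.59 on the other 4, a gap of 0.956 of the range.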

How the results depend on the processing

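Under 23 alternatives for genotype and 15 for the Cd2 classes, none of the 7 genes reached a limma adjusted p under 0.05 for genotype (smallest 0.663 over 161 values), so the number of these genes called remained 0. The direction held in 154 of the 161 values. That count includes settings that cannot change a difference: the filter alternatives, other variance settings of the test and the replicate block. For genes with a single probe set, the mean of all probe sets could not change it either. Igf2 turned positive without WASP-intact array 4 or 5 (0.31 in both; -1.46 to 0.31 over arrays left out), with array weights (0.78), with the Xist level (1.29) or the Cd2 class (0.53) as covariate, and in the Cd2-low arrays alone (0.69). Igf1r turned negative with the Xist covariate (-0.24, SE 0.84). The cause of the turns with array weights and Xist was not tested. The number of genes called, 1, was 1 to 4 over arrays left out (4 without WASP-intact array 3, 2 without WASP-deficient array 1), 2 in the Cd2-low arrays and 2 with unequal variances. It was 0 with the Xist covariate, and a replicate block also gave 0. Same-numbered arrays deviated together (correlation over 0.1) in only 2 of 5 pairs, and 1 of 5 WASP-intact arrays correlated best with its own number. The correlations of numbers 1, 4 and 5 were -0.71, -0.41 and -0.37, and each joins a Cd2-high with a Cd2-low array. These deviations hold the class step, so they cannot exclude a pairing by number. The block left Igf2 at -0.50 (SE 1.61) and Igfbp4 at 0.57 (SE 0.27). All 105 class differences moved by less than 1 SD of the arrays within the classes. For Igf2bp3, Igf1 and Igf2bp1 that SD was larger than the difference itself, so the measure cannot show their differences to be stable. The Igf2bp3 class difference, -0.54, was -0.03 without WASP-deficient array 4 and 0.02 in the WASP-intact arrays alone. The class difference of Igf2 lay between 4.91 and 5.11 over arrays left out.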

Other observations

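WASP-deficient array 4, the array with raised Igf2bp3, had further genes raised beside it. By the same root mean square difference of gene-centred levels over 10 arrays, the tested genes closest to Igf2bp3 were Lrrc10b (0.43), Nr4a1 (0.48), Upk1b (0.54), Spib (0.56) and Fosl2 (0.60). Nr4a1, an immediate early nuclear receptor, was at 9.19 on that array and between 6.54 and 7.32 on the other 9. Fosl2, a subunit of the AP-1 factor, was at 8.99 against 6.99 to 7.66, and Spib, an ETS factor of lymphoid cells, at 9.42 against 6.06 to 7.57. Cdkn1c was also highest there, at 9.24. These values rest on 1 lymphoma and were chosen for their likeness to Igf2bp3.

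Irs1, the docking protein of the insulin and IGF1 receptors, was too dim to pass the filter. It stood at 6.93 to 7.02 on the Cd2-high and 5.74 to 6.01 on the Cd2-low arrays, the opposite direction from Irs2. It was singled out after its values were seen, and no test was made.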
